A study of Mus musculus with 6 samples.

Results

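The genes of glucose uptake, glycolysis and glycogen were followed in ventricles of skNAC knockout mouse embryos and wild-type embryos. The set was given as a list of gene symbols and holds 36 genes of glucose and lactate carriers, the enzymes of glycolysis, the pyruvate dehydrogenase complex with its kinases, and the enzymes that build and break down glycogen. A probe set annotated to the single symbol was found for 34 of the 36, out of 18193 genes with such a probe set on the array. Gpi1 and Eno1 were not analysed here. Where a gene had several probe sets, the brightest stood for it. Of the 34, 32 passed the filter on dim probe sets, which kept those with a mean above the median of the array (an intensity of 95.2), Eno2 lay below it, and Gapdh was represented by control probe sets of the array alone.

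The 3 knockout arrays carried RNA of ventricles of 129SvEv embryos at E11.5 with a targeted deletion of skNAC, the muscle form of the nascent polypeptide-associated complex alpha subunit. The 3 wild-type arrays carried RNA of ventricles of littermates of the same strain and stage. The deletion is lethal by E12.5 with cardiac defects, per the labels. Arrays are named by the numbers in their titles, and the labels give neither which embryos shared a litter nor whether ventricles were pooled, so the p-values measure the spread between these samples, which may in part be technical. The construct of the deletion and the number of mouse lines are not given in the labels.

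Glucose enters cells through facilitative carriers, is trapped by hexokinase, is split and oxidised to pyruvate by glycolysis, and then either leaves as lactate or enters mitochondria through pyruvate dehydrogenase. Several steps are served by isozymes from different genes, among them forms that prevail in striated muscle and forms that prevail in proliferating or embryonic tissue. The embryonic heart is known to rely on glycolysis and to hold much glycogen, and the mature heart to rely on fatty acids.

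Probe set intensities are MAS5 signals on a linear scale, and every array had a 2% trimmed mean of 250. Here and below, differences are knockout minus wild-type on the log2(intensity + 16) scale ± SE from limma, fitted over all probe sets kept. Array medians ran from 92 to 113.9. Knockout 66 stood apart on the first principal component (38.7% of the variance), at 55.9, with the other arrays between -24.7 and 4.79, so the difference of each member that turned or moved by over 1.5 times without it is given without it too. All 9 cardiomyocyte markers passed the filter, with summed intensities of 105060.0 to 118361 in knockout, against 100141 to 110071 in wild-type. By marker, Actc1 and Myl2 were higher in all knockout arrays and the others overlapped. Epicardial markers summed to 5162 to 6143 in knockout, against 4979 to 5513 in wild-type. Krt8 and Krt19 were higher in all knockout arrays and the rest overlapped. Endothelial and endocardial markers summed to 4407 to 4644 in knockout, against 4334 to 4595 in wild-type. There Pecam1 was lower in all knockout arrays and the rest overlapped. Markers of cushion mesenchyme (7 of 7 above the filter) summed to 6026 to 6628 in knockout, against 7066 to 7909.6 in wild-type, lower in all knockout arrays. Their mean log2 deviations were also lower in all knockout arrays. By marker, Snai2 and Pdgfrb were lower in all knockout arrays. Tbx20, the brightest, Sox9, Postn, Twist1 and Pdgfra overlapped. In knockout 66 Pdgfra was the highest of the 6 arrays, at 1497.4, and Tbx20 the lowest, at 2435.1. The separation of the sums therefore rested on Tbx20, which weighs most in them. Markers of macrophages and platelets (5 of 7, with Cd68 and C1qa below the filter) summed to 2121 to 2305 in knockout, against 2329.6 to 2797 in wild-type. Of those above the filter, Csf1r and Ppbp were lower in all knockout arrays. Ptprc, Pf4 and Itga2b overlapped, and Ptprc was highest in knockout 66, at 144.7. The mean log2 deviations of these markers overlapped, at -0.12, -0.072 and -0.014 in knockout 1, 26 and 66, against -0.093, 0.21 and 0.095 in wild-type 13, 23 and 57. Primitive erythroid markers (7 of 8 measured above the filter, Hba-a1 below it) deviated from the mean of the 6 arrays by 0.65, -0.078 and -0.49 in knockout 1, 26 and 66, against 0.034, -0.38 and 0.26 in wild-type 13, 23 and 57 on the log2 scale. Of the 7 hepatic markers 1, Apoa2, was above the filter, with Alb, Afp, Ttr, Apoa1 and Fgb below it. In whole ventricles, fewer cells of a type and less RNA per cell cannot be told apart.

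No member passed the test between genotypes after adjustment. In limma, no p adjusted over 11661 genes was under 0.05 for any of them (0%), and the members' smallest was 0.974. Knockout values exceeded wild-type values on average in 19 of the 32 (50.4% over all genes), with a median log2 difference of 0.035 for the members and 0.0023 for all genes, and the members' differences ran from -0.61 for Gbe1 to 0.25 for Gys1. That median depended on single arrays: it was -0.017 without knockout 26, -0.0038 without wild-type 57 and 0.057 without knockout 66, when 14, 16 and 20 of the 32 members lay above 0. With the mean of all kept probe sets of a gene in place of the brightest it was -0.012, and 15 members lay above 0. It was 0.0031 after quantile normalization and 0.10 with array weights. All 3 knockout arrays exceeded all 3 wild-type arrays for 3 members (Hk1, Ldha and Pdk4), where 5.4% of all genes did, and lay below them for 2 (Gbe1 and Pdk3), where 5.45% of all genes did, so that 5 of 32 were apart either way, against 10.9% of all genes. At an unadjusted p under 0.05 there was 1 member, Gbe1, on the lower side, where 2.51% of genes were, and none on the higher side, where 2.18% were. Every p given below as adjusted is Benjamini-Hochberg adjusted over all genes tested, unless it is for an isoform ratio.

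The precision bounds what could have been missed in the brightest probe set of each member. The standard errors of the members ran from 0.086 to 0.25, with a median of 0.14. The 95% interval of the difference lay within ±0.5 on the log2 scale for 23 of the 32 members and within ±1 for 31, the exception being Gbe1. Other probe sets of a member are not covered: Hk1 counts within ±0.5, and its other kept probe set gave -0.48 ± 0.23.

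**Figure D1:**
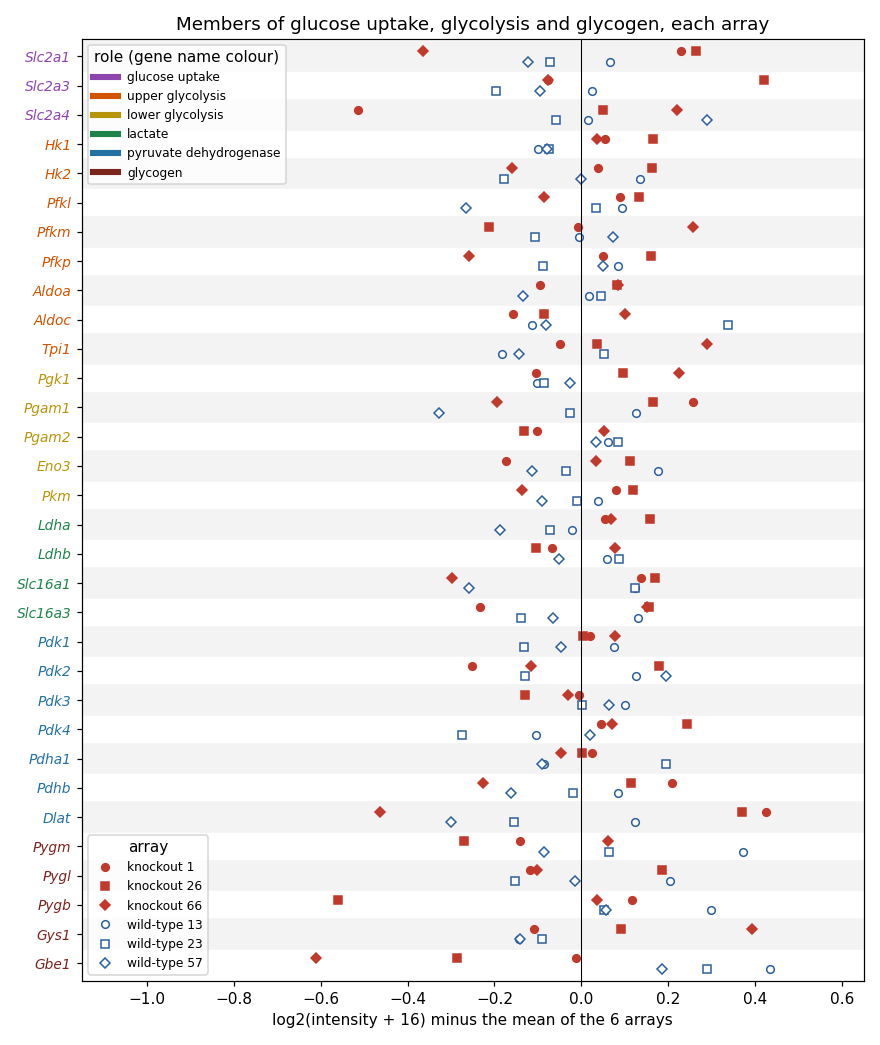
Each row is a member above the filter, ordered by role, and each point is an array, as log2(intensity + 16) minus the mean of the 6 arrays, with knockout arrays as filled red marks and wild-type arrays as open blue marks. Knockout 66 (red diamonds) is the lowest array for Slc2a1, Dlat and Gbe1 and the highest for Gys1, and the genotypes are apart only in the rows of Hk1, Ldha, Pdk3, Pdk4 and Gbe1.

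Glucose carriers did not separate the genotypes. Slc2a1, the carrier GLUT1 of embryonic and proliferating cells, read 7816.1, 8004 and 5175.5 in knockout 1, 26 and 66, against 6979.5, 6336.9 and 6118.9 in wild-type 13, 23 and 57. Knockout 1 and 26 were the highest of the 6 arrays and knockout 66 the lowest, and the difference of 0.086 ± 0.15 was 0.29 without knockout 66, -0.024 without knockout 26 and -0.0071 without knockout 1. Its other 2 probe sets gave 0.13 and 0.14. Slc2a3, the high-affinity carrier GLUT3, read 1646.5, 2329.1 and 1644 in the knockout arrays, against 1766.1, 1513.5 and 1623.6 in the wild-type arrays, with a single high value in knockout 26. It gave 0.18 ± 0.15, or 0.012 without knockout 26, and its second kept probe set pointed the other way, at -0.28. Slc2a4, the insulin-responsive carrier GLUT4 of muscle and fat, was dim, at 157 ± 42.9 in knockout and 174 ± 24.9 in wild-type, and gave -0.16 ± 0.25 with an interval from -0.70 to 0.38, or -0.31 without knockout 66. In the wider pathway, 1 of 3 carriers above the filter lay above 0.

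Hexokinase 1 gave opposite readings from its probe sets. Hk1, the form of most tissues that sits on mitochondria, read 2137.1, 2308 and 2112.1 in knockout 1, 26 and 66, against 1918.3, 1953.3 and 1947 in wild-type 13, 23 and 57 on the brightest. All knockout arrays were higher, by 0.17 ± 0.098, at a limma p of 0.112 before adjustment. A dimmer probe set of the same gene read 133, 199.2 and 171.4 in the knockout arrays, against 308, 200.5 and 215.5 in the wild-type arrays. There all knockout arrays were lower, at -0.48 ± 0.23, and the mean of both readings was -0.15. The transcripts that each probe set reads were not analysed here. Hk2, the insulin- and hypoxia-responsive form of muscle, averaged 1319 ± 149 in knockout and 1293 ± 141 in wild-type and gave 0.028 ± 0.13 with an interval from -0.26 to 0.32, or 0.12 without knockout 66.

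The phosphofructokinase genes, which encode the committed step of glycolysis, stood close to 0. Pfkl, the liver form, gave 0.091 ± 0.13, Pfkm, the muscle form, 0.026 ± 0.14, and Pfkp, the platelet form, -0.031 ± 0.13. Pfkm averaged 836 ± 140.0 in knockout and 814 ± 52.0 in wild-type. Its values ran from 706.5 in knockout 26 to 984.5 in knockout 66, wider than the whole wild-type range of 760.7 to 864.5. The difference was 0.16 for Pfkl, -0.096 for Pfkm and 0.090 for Pfkp without knockout 66, and both other Pfkl probe sets were below 0, at -0.24 and -0.038.

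Of the enzymes that split the hexose, Aldoa, the aldolase of muscle and of most embryonic tissue, averaged 11076 ± 775 in knockout and 10712 ± 712 in wild-type (0.048 ± 0.091). It was represented by probe sets ending in _x_at alone, which can read related sequences, and 3 of the other 4 were below 0, the lowest at -0.18. The Aldoa difference was -0.090 after quantile normalization and 0.017 without knockout 66. Aldoc, the aldolase of brain, averaged 269 ± 26.8 in knockout and 290.5 ± 56.0 in wild-type (-0.095 ± 0.18, or -0.17 without knockout 66). Tpi1, which interconverts the triose phosphates, read 8728.6, 9269.1 and 11054.2 in knockout 1, 26 and 66, against 7954.9, 9363.6 and 8173.3 in wild-type 13, 23 and 57. The highest value was in knockout 66, without which the difference of 0.18 ± 0.11 was 0.086, and after quantile normalization it was 0.065. Of its other probe sets the values were 0.18 and -0.11.

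Gapdh, the dehydrogenase that makes NADH in glycolysis, gave readings that depended on the part of the transcript. Its control probe sets read the 3′ end, the middle and the 5′ end of the transcript and were outside the limma fit. The 3′ probe set read 13440.4, 14378.6 and 13743 in knockout 1, 26 and 66, against 12558.6, 12751.9 and 12264 in wild-type 13, 23 and 57. All knockout arrays were higher, by 0.14 on the log2 scale, with a two-sided exact permutation p of 0.1, the smallest possible. The middle probe set read 9652, 10373.7 and 9603.2 in the knockout arrays, against 9987.5, 10471.9 and 9607.2 in the wild-type arrays, and the 5′ probe set 10094.2, 11246.5 and 9498.2 in the knockout arrays, against 10496.3, 11382.9 and 10405.1 in the wild-type arrays. Both overlapped, at -0.021 and -0.068. The ratio of the 3′ to the 5′ signal was 1.33, 1.28 and 1.45 in knockout 1, 26 and 66, against 1.20, 1.12 and 1.18 in wild-type 13, 23 and 57, and the same ratio of actin was 2.49 to 2.57 in knockout and 2.05 to 2.24 in wild-type. These ratios, a measure of RNA integrity and of the length of the labelled product, moved with genotype, and their part in the differences of Gapdh and of the other members was not tested.

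**Figure D2:**
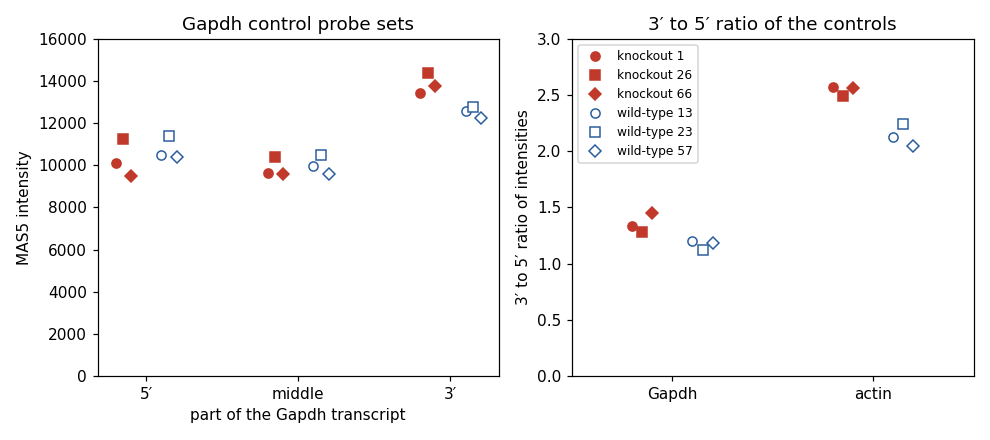
Left, MAS5 intensity of the 3 Gapdh control probe sets in each array; right, the ratio of the 3′ to the 5′ control signal of Gapdh and actin in each array. Knockout arrays (filled red) exceed wild-type arrays (open blue) at the 3′ end and in both ratios, at 1.28 to 1.45 against 1.12 to 1.20 for Gapdh, and overlap with them at the middle and 5′ end.

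The remaining steps of lower glycolysis gave small differences. Pgk1, which makes the first ATP of the pathway, read 11126.6, 12798.1 and 13989.5 in the knockout arrays, against 11151, 11268.5 and 11750.7 in the wild-type arrays, with the highest value in knockout 66, and gave 0.14 ± 0.097, or 0.067 without it and 0.019 after quantile normalization. Its other 2 probe sets were also above 0. Pgam1, the phosphoglycerate mutase of most tissues, read 5724.3, 5377.2 and 4185 in the knockout arrays, against 5227.3, 4705.7 and 3813.8 in the wild-type arrays and gave 0.15 ± 0.14. That was 0.29 without knockout 66 and 0.026 without wild-type 57. Pgam2, its muscle counterpart, read 2036, 1993 and 2267.5 in the knockout arrays, against 2279, 2318.6 and 2237.6 in the wild-type arrays. Knockout 1 and 26 were below all wild-type arrays and knockout 66 was not, and the difference was -0.12 ± 0.10, or -0.18 without knockout 66. Eno3, the muscle enolase, averaged 1936 ± 196 in knockout and 1960.2 ± 209.6 in wild-type (-0.018 ± 0.12, or -0.039 without knockout 66). Pkm, the pyruvate kinase of muscle and embryonic tissue, averaged 3425 ± 319 in knockout and 3321 ± 149.6 in wild-type (0.041 ± 0.10, or 0.12 without knockout 66). Splice forms of Pkm were not told apart. Eno2, the neuronal enolase, averaged 74.0 ± 7.37 in knockout and 87.0 ± 17.9 in wild-type, below the filter. In the limma fit without a filter it gave -0.18 ± 0.33 (interval from -0.93 to 0.56). It read 78.5, 78 and 65.5 in knockout 1, 26 and 66, against 78.3, 75.1 and 107.6 in wild-type 13, 23 and 57. The highest value was in wild-type 57 and the lowest in knockout 66. Neural markers (4 of 8 above the filter) were highest in wild-type 57 and knockout 66, and their part in the Eno2 values was not tested.

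The lactate dehydrogenase subunits lay on opposite sides of 0. Ldha, the subunit that prevails in glycolytic tissue, read 9090.5, 9759.5 and 9166 in knockout 1, 26 and 66, against 8615.5, 8315.3 and 7685.3 in wild-type 13, 23 and 57. The lowest knockout array was above the highest wild-type array. Knockout minus wild-type came to 0.19 ± 0.086 on the log2 scale (95% interval from -0.0026 to 0.38), at a limma p of 0.0527 before and 0.974 after adjustment, and it was 0.20 without knockout 66. After quantile normalization, which forces all arrays to the same distribution, it was 0.10. Ldhb, the subunit that prevails in adult heart, read 3027.3, 2948.6 and 3350.7 in the knockout arrays, against 3304.7, 3371.1 and 3063.3 in the wild-type arrays and gave -0.063 ± 0.099, with overlapping groups, or -0.12 without knockout 66. Its other 3 probe sets lay between -0.11 and -0.075.

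The lactate carriers showed no separation of the genotypes. Slc16a1, the widely expressed monocarboxylate carrier MCT1, averaged 3038 ± 521 in knockout and 3016 ± 442 in wild-type, a difference of 0.0062 ± 0.15 with an interval from -0.32 to 0.33, or 0.16 without knockout 66. It was lowest in knockout 66 and wild-type 57, at 2438 and 2505.5. Slc16a3, MCT4, a lactate exporter of glycolytic muscle, averaged 238 ± 37.6 in knockout and 228 ± 24.1 in wild-type and gave 0.049 ± 0.19, or -0.014 without knockout 66. In the wider pathway, Ldhd, a mitochondrial dehydrogenase of D-lactate, read 128.8, 120.1 and 129 in the knockout arrays, against 75.2, 71.8 and 95.7 in the wild-type arrays. All knockout arrays were higher, by 0.56 ± 0.26, at a limma p of 0.0586 before and 0.974 after adjustment, and the wild-type mean of 80.9 was below the filter level of 95.2.

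The balance of the subunits was read from the ratio of Ldhb to Ldha within each array. A constant brightness of either probe set cancels from the difference of this ratio between genotypes. A dependence on intensity that differs between arrays does not cancel. The log2 ratio deviated from its 6-array mean by -0.12, -0.26 and 0.011 in knockout 1, 26 and 66, against 0.080, 0.16 and 0.14 in wild-type 13, 23 and 57. It was lower in all knockout arrays, with a shift of -0.25 ± 0.083, or 0.84 times the wild-type ratio. The exact permutation test, two-sided over the 20 assignments of 6 arrays, gave p = 0.1, the smallest it can give, and 0.7 adjusted over the 14 isoform pairs. Without knockout 66 the shift was -0.32. After quantile normalization it was -0.20, and with the _x_at and _s_at probe sets left out -0.29, and the arrays then overlapped.

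The pyruvate dehydrogenase kinases, which switch the complex off, lay on both sides of 0. Pdk3 read 1062.8, 974.1 and 1044.1 in knockout 1, 26 and 66, against 1145.3, 1068.4 and 1115.6 in wild-type 13, 23 and 57. The knockout arrays were all lower, by a small margin between 1062.8 in the highest knockout array and 1068.4 in the lowest wild-type array, and the difference came to -0.11 ± 0.11 (interval from -0.36 to 0.14). Pdk4, the kinase induced by fasting and fatty acids in muscle, read 208, 240.8 and 211.9 in the knockout arrays, against 185.7, 163.5 and 204 in the wild-type arrays. Its knockout arrays were all higher, by 0.24 ± 0.19. Its limma p was 0.229 before and 0.974 after adjustment. Pdk1, a target of hypoxic signalling, read 1010.5, 998.8 and 1051.3 in the knockout arrays, against 1051, 907.7 and 964.4 in the wild-type arrays and gave 0.067 ± 0.12, while its other 2 kept probe sets gave -0.17 and -0.088. Pdk2, the most widespread kinase, was dim at 134 ± 23.3 in knockout and 147 ± 18.7 in wild-type and gave -0.13 ± 0.23.

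The ratio of Pdk3 to Pdk1 was the other isoform ratio whose arrays did not overlap. It deviated by -0.026, -0.13 and -0.11 in knockout 1, 26 and 66, against 0.024, 0.13 and 0.11 in wild-type 13, 23 and 57. It was lower in all knockout arrays, with a shift of -0.18 ± 0.046 and an exact permutation p of 0.1 and 0.7 adjusted over the 14 pairs. It kept its sign when any single array was left out, between -0.21 and -0.16. With the mean of all kept probe sets of each gene it was -0.048, with overlapping arrays. The ratio of Pdk4 to Pdk1 was higher in knockout by 0.17 ± 0.11 and that of Pdk2 to Pdk1 gave -0.19 ± 0.16, both with overlapping arrays.

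Subunits of the complex itself showed no shift beyond the spread between arrays. Pdha1, the catalytic alpha subunit of its first enzyme, averaged 3296 ± 83.3 in knockout and 3339.9 ± 393 in wild-type (-0.013 ± 0.11), and Pdhb, the beta subunit, 4599 ± 703 in knockout and 4370.0 ± 373 in wild-type (0.065 ± 0.12). Without knockout 66 these were 0.0071 for Pdha1 and 0.19 for Pdhb. Dlat, the acetyltransferase core, read 1289.2, 1241.2 and 689.3 in knockout 1, 26 and 66, against 1043.6, 858.1 and 773.9 in wild-type 13, 23 and 57. Knockout 1 and 26 were above all wild-type arrays and knockout 66 below them, and its difference of 0.22 ± 0.22 became 0.51 without knockout 66. Its other probe sets gave 0.26 and -0.13. Of the other genes of this step, 5 of 6 lay below 0, with a median of -0.028. Among them Pdpr, Pdhx and Dld were close to 0, at -0.0017, -0.0083 and -0.048. Mpc1, a subunit of the mitochondrial pyruvate carrier, gave -0.27 ± 0.15 with overlapping groups, or -0.17 without knockout 66.

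Glycogen genes held both the largest negative and the largest positive difference of the set. Gbe1, the branching enzyme that adds side chains to growing glycogen, read 200.7, 163.1 and 127.1 in knockout 1, 26 and 66, against 279.4, 251.3 and 232.7 in wild-type 13, 23 and 57. Every knockout array was below every wild-type array, and the lowest value was in knockout 66. The means were 164 ± 36.8 in knockout and 254 ± 23.5 in wild-type (SD, n = 3 each), a log2 difference of -0.61 ± 0.21 with a 95% interval from -1.07 to -0.15, at an unadjusted p of 0.0145 and an adjusted p of 0.974 in limma. Without knockout 66 the difference was -0.45, and over the 6 fits that left out an array it ran from -0.75 to -0.45. Its adjusted p was 0.217 or higher under every alternative that kept it, which the filter at the 70th percentile did not. Gbe1 had a single probe set, so no second reading was available. The summed markers of cushion mesenchyme were also lower in all knockout arrays, a separation that rested on Tbx20. The part of these markers' cells in the Gbe1 difference was not tested.

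Gys1, the muscle glycogen synthase that lengthens the chains Gbe1 branches, read 455.6, 525.7 and 652.1 in knockout 1, 26 and 66, against 444.8, 461.4 and 445.3 in wild-type 13, 23 and 57. Knockout 1 lay within the wild-type arrays and knockout 66 well above them. Its difference of 0.25 ± 0.16 was 0.12 without knockout 66, and the limma p was 0.141 before adjustment. The phosphorylases release glucose 1-phosphate from glycogen. Pygm, the muscle form, read 397, 361.4 and 459.5 in the knockout arrays, against 573.7, 460.2 and 412.9 in the wild-type arrays. Pygb, the form first found in brain, read 797.2, 492.5 and 751.9 in the knockout arrays, against 905.2, 760.8 and 763.6 in the wild-type arrays, with knockout 26 far below the rest. The groups overlapped for both, at -0.23 ± 0.17 and -0.27 ± 0.18, and the Pygb difference shrank to -0.059 without knockout 26. Pygl, the liver form, averaged 734 ± 91.8 in knockout and 746 ± 96.1 in wild-type and gave -0.024 ± 0.15, or 0.022 without knockout 66. Of the 5 glycogen genes 4 lay below 0, with a median of -0.23.

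Among the other genes of the pathway, chosen by name, those of glycogen metabolism lay on both sides of 0: 10 of 19 above the filter were higher on average in knockout, with a median of 0.0016. Gyg, glycogenin, the protein primer on which glycogen is begun, read 10442.1, 10574 and 11062.3 in the knockout arrays, against 9706.4, 9634.9 and 9630.3 in the wild-type arrays. All knockout arrays were higher, by 0.15 ± 0.079, and the limma p was 0.0912 before and 0.974 after adjustment. Quantile normalization left 0.0022 of it, and another probe set of Gyg gave -0.018. Pgm2, a phosphoglucomutase, gave -0.36 ± 0.21 and -0.23 without knockout 66.

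The sequences before the start of the genes that led these comparisons are shown so that the lactate dehydrogenase and kinase pairs and Gbe1 can be set side by side. They are the 250 bases upstream of the annotated start in RefSeq, build GRCm38.p6, 5′ to 3′ on the strand of the gene, with every match to ACGTG or its reverse complement CACGT in capitals. ACGTG is a form of the core that hypoxia-inducible factors bind, and a CACGTG match, which also is an E-box, is both at once. The form GCGTG, which they also bind, was not searched, so a count of 0 below refers to ACGTG and CACGT alone. The windows shown for Pdk1, Ldhb and Pdk3 hold GCGTG. Of the 34 members measured, 32 had a window in the table, Slc2a3 and Slc2a4 being the others. The motif was in at least 1 window of 16 of the 32 (50%), where 18.5% of all 27025 genes in the table had it. By window, it was in 18 of 43 windows of the members (41.9%) and in 16.6% of all 32851. Ldha is shown at chr7:46845554-46845803 on the plus strand with 3 separate matches (the first of 2 annotated starts; the window of the other, chr7:46846832-46847081, held 0), Ldhb at chr6:142507958-142508207 on the minus strand with 0, Pdk3 at chrX:93832151-93832400 on the minus strand with 1, Pdk1 at chr2:71872974-71873223 on the plus strand with 0 (the first of 2 starts, the other also with 0) and Gbe1 at chr16:70313699-70313948 on the plus strand with 0. A match is a stretch of letters, and no binding was measured here.
Ldha: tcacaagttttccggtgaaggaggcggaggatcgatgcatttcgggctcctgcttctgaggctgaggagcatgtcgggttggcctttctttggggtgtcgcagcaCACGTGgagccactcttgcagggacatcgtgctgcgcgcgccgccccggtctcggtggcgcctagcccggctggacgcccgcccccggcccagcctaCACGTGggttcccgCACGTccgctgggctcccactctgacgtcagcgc
Ldhb: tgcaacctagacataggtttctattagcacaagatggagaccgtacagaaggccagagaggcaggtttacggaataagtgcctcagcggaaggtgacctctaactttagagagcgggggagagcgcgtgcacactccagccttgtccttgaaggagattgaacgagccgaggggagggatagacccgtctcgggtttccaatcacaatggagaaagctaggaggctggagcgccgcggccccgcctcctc
Pdk3: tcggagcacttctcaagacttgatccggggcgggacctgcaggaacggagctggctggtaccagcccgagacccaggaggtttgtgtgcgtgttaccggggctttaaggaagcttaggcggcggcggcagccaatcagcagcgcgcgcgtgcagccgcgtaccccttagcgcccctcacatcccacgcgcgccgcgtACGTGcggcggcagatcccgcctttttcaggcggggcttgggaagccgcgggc
Pdk1: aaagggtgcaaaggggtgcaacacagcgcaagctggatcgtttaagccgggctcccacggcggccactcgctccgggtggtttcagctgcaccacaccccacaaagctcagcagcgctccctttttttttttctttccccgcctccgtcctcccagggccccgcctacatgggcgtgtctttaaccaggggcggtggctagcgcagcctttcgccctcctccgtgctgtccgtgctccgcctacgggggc
Gbe1: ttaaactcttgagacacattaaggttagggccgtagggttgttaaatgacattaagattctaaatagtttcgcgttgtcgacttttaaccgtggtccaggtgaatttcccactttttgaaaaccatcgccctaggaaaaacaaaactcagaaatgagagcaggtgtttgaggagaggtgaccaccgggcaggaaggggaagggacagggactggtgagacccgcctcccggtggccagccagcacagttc

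**Figure D3:**
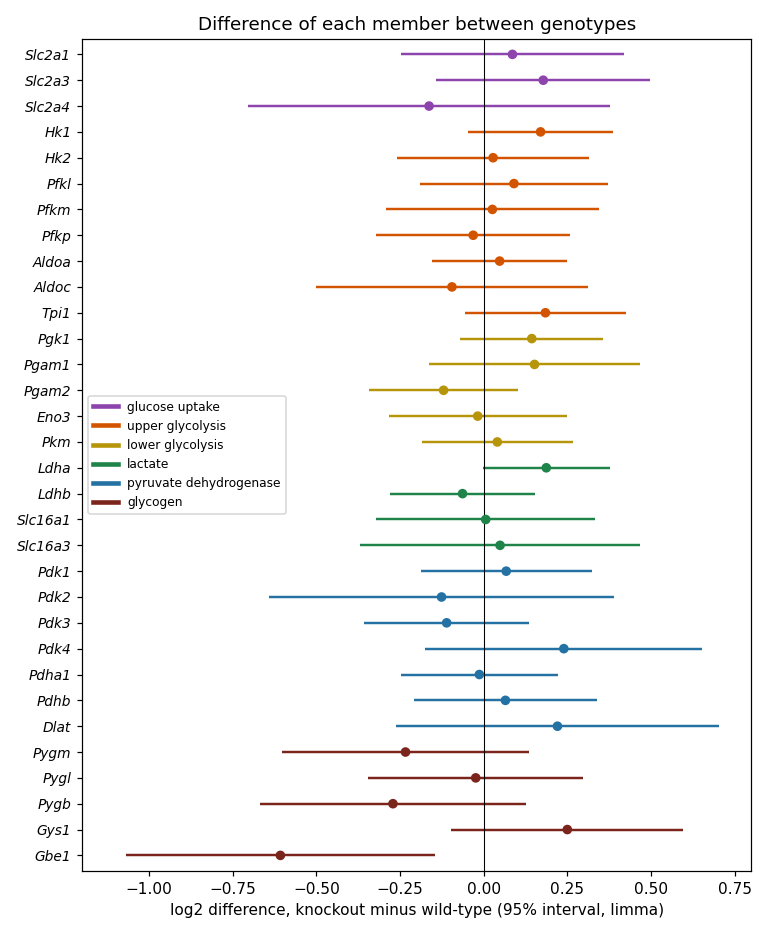
Log2 difference of each member above the filter, knockout minus wild-type, with its 95% interval from limma; colours give the role. The interval of Gbe1, from -1.07 to -0.15, is the only one that does not cross 0, before any adjustment over genes.

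Across the 14 isoform pairs that could be formed, 9 ratios were lower and 5 higher in knockout, with a median shift of -0.13 on the log2 scale. The arrays were apart for 2, both lower, where 10.9% of all genes, as single readings, were apart either way. The pairs share denominators and are not independent. Ratios of a muscle form to a form of other tissues lay below 0 for 4 pairs. They gave -0.25 ± 0.41 for Slc2a4 over Slc2a1, -0.14 ± 0.12 for Hk2 over Hk1, -0.064 ± 0.25 for Pfkm over Pfkl and -0.27 ± 0.23 for Pgam2 over Pgam1. Here ± is the standard error from the spread of the arrays. In all 4 the arrays overlapped and the exact permutation p was 0.3 or higher. Without knockout 66 the arrays were apart for 2 of the 4, both lower: Slc2a4 over Slc2a1, at -0.60, and Pgam2 over Pgam1. They overlapped for Hk2 over Hk1, at -0.079, and Pfkm over Pfkl, at -0.25. With an array fewer, groups come apart more readily, and the share over all genes was not taken for that fit. The ratio of Pgam2 to Pgam1 deviated by -0.36, -0.30 and 0.25 in knockout 1, 26 and 66, against -0.065, 0.11 and 0.36 in wild-type 13, 23 and 57, so that knockout 66 lay among the wild-type arrays, and without knockout 66 the shift was -0.46. In the opposite direction, Pygm over Pygb gave 0.038 ± 0.17 and Slc16a3 over Slc16a1 0.043 ± 0.27, and these also set a form of muscle over another form. Pygl over Pygb gave 0.25 ± 0.31 and Slc2a3 over Slc2a1 0.092 ± 0.18, and the Pygl ratio was -0.063 without knockout 26. Without knockout 66 the shift was 0.38 for Pygl over Pygb, -0.028 for Slc2a3 over Slc2a1 and -0.17 for Slc16a3 over Slc16a1.

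**Figure D4:**
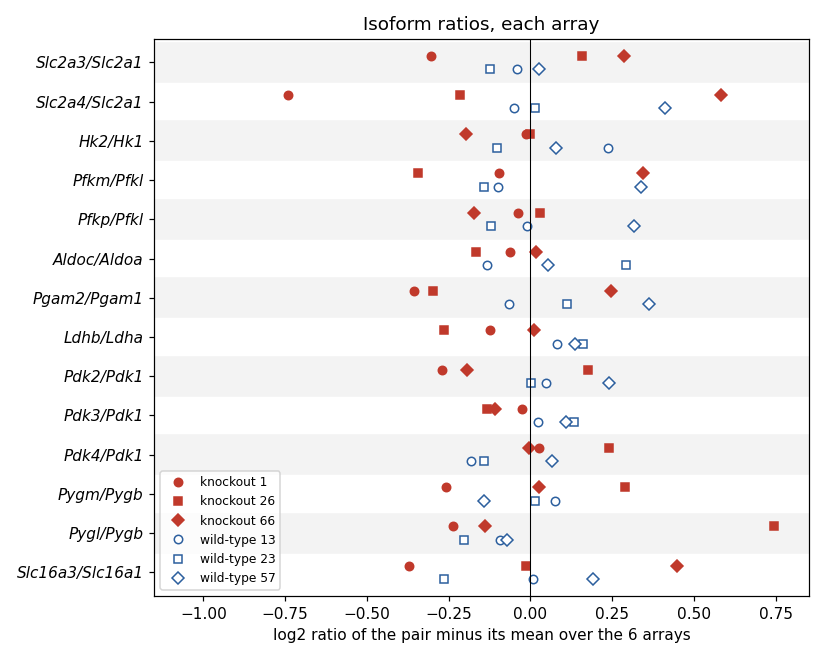
Log2 ratio of each isoform pair in each array, minus its mean over the 6 arrays, with knockout arrays as filled red marks and wild-type arrays as open blue marks. The genotypes are apart for Ldhb/Ldha and Pdk3/Pdk1, and knockout 1 and knockout 66 lie at opposite ends for Slc2a4/Slc2a1.

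Probe sets of the same gene often disagreed. The members had 65 probe sets besides the controls, of which 56 passed the filter, 27 with a difference above 0 and 29 below. Of 13 members with more than 1 kept probe set, 9 had at least 1 of opposite sign to the brightest. Slc2a1, Slc2a4, Pgk1 and Ldhb were the members whose kept probe sets all pointed the same way. By probe set, the arrays were apart upward for 3 of the 56 (Hk1, Ldha and Pdk4), where 4.97% of all kept probe sets were, and downward for 3 (the dimmer one of Hk1, Pdk3 and Gbe1), where 5.55% were.

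**Figure D5:**
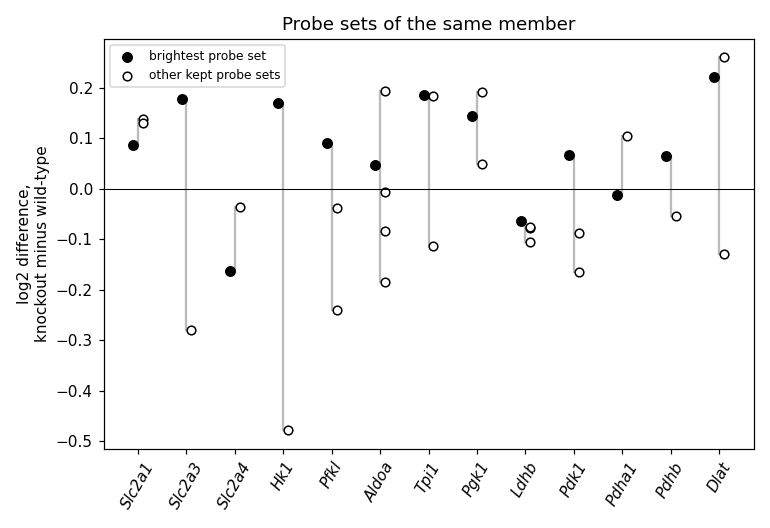
Log2 difference, knockout minus wild-type, of the probe sets of each member that had more than 1 above the filter; the filled point is the brightest, which stands for the gene, and open points are the others. The widest gap is that of Hk1, from -0.48 to 0.17.

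Of 66 further genes of the pathway chosen by name, 59 had a probe set of their single symbol and 48 passed the filter. In limma 0 of the 48 were called after adjustment, and 0 had an unadjusted p under 0.05, where 4.69% of all genes did. The median difference was 0.0047, with 25 above 0 and 23 below. All knockout arrays exceeded all wild-type arrays for 4 of the 48 (Ldhd, Gyg, Phkg2 and Nhlrc1) and lay below them for 1 (Stbd1), where 5.4% and 5.45% of all genes did. Of these, Phkg2, Nhlrc1 and Stbd1 were picked out after their values were seen. The regulators and side branches of glycolysis had 8 of 12 members above 0 and a median of 0.069.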

How the data were processed

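Each of the 6 arrays, of an Affymetrix mouse genome design, carried amplified, biotin-labelled RNA from 500 ng of total RNA, per the labels. The deposited values are probe set intensities, computed by the authors in MAS5 under GCOS, per the submitters' processing notes. No source used here gives versions, the scaling target or detection calls. Such scaling hides any difference in total RNA per cell. The number of arrays limits the precision.

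Of 45101 probe sets, 64 were controls. The platform annotation gave 1 symbol for 34958, several for 932 and none for 9211. Intensities were transformed as log2(intensity + 16) and probe sets with a mean above the median of the non-control probe sets were kept (22518). limma 3.58.1 under R 4.3.3 was used (lmFit, eBayes with a trend, two-sided), with Benjamini-Hochberg adjustment over the 11661 genes, each by its brightest probe set, and calls at 0.05. Isoform ratios were compared by exact permutation over arrays. The members, the isoform pairs, the 66 further pathway genes and the markers of 8 cell types were chosen with earlier results of these data known. All members are named, and of the further genes the 6 of smallest p. The fit was tested on simulated data. Alternatives were pseudocounts of 1 and 64, no filter, a filter at the 70th percentile, quantile normalization, median centring, eBayes without a trend, array weights, leaving out the _x_at and _s_at probe sets, averaging the probe sets of a gene and leaving out each array. Python 3.11.15 and Matplotlib 3.10.9 drew the figures.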

Additional observations from a re-analysis of the deposited data

How the results depend on the processing

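In limma, members called stayed at 0 under all 16 alternatives, with a smallest adjusted p of 0.217. Genes called over the whole array were 0, but 8 with array weights, and 0 to 2 when an array was left out (2 without knockout 1 and 1 without knockout 66). The members above 0 numbered 14 to 22 and their median was -0.017 to 0.10, against 19 and 0.035 in the full data. The median was below 0 without knockout 26, without wild-type 57 and with probe sets averaged. Of 506 member values under the alternatives, 41 had the opposite sign, and 13 of 32 members kept their sign throughout. With quantile normalization the sign turned for Aldoa (-0.090), Pkm (-0.0060), Slc16a1 (-0.012), the ratio Aldoc/Aldoa (0.013). With array weights the sign turned for Pfkm (-0.092), Pfkp (0.10), Eno3 (0.040), Pdk2 (0.049), Pygl (0.11). Leaving out the _x_at and _s_at probe sets the sign turned for the ratio Slc2a3/Slc2a1 (-0.19). Averaging the probe sets of a gene the sign turned for Slc2a3 (-0.051), Hk1 (-0.15), Pfkl (-0.062), Aldoa (-0.0068), Pdk1 (-0.062), Pdha1 (0.045), the ratio Slc2a3/Slc2a1 (-0.17), the ratio Hk2/Hk1 (0.18), the ratio Pfkm/Pfkl (0.088), the ratio Pfkp/Pfkl (0.031). Leaving out 1 array in turn turned the sign for Slc2a1 (-0.024 to 0.29), Slc2a4 (-0.31 to 0.053), Eno3 (-0.079 to 0.066), Pdhb (-0.024 to 0.19), Pygl (-0.12 to 0.072), Slc16a1 (-0.12 to 0.16), the ratio Slc2a4/Slc2a1 (-0.60 to 0.060), Hk2 (-0.054 to 0.12), Pkm (-0.0083 to 0.12), Slc16a3 (-0.017 to 0.18), the ratio Pfkm/Pfkl (-0.25 to 0.092), the ratio Pygm/Pygb (-0.097 to 0.18), the ratio Pygl/Pygb (-0.063 to 0.43), Pfkm (-0.096 to 0.14), Pfkp (-0.12 to 0.090), Pdha1 (-0.061 to 0.082), the ratio Slc2a3/Slc2a1 (-0.028 to 0.27), the ratio Slc16a3/Slc16a1 (-0.17 to 0.24), Aldoc (-0.18 to 0.051), Pfkl (-0.019 to 0.16), Aldoa (-0.0079 to 0.11), the ratio Pfkp/Pfkl (-0.21 to 0.0053). The cause of these turns was not tested. No paired analysis was possible because the genotypes share no number in their titles. The filter left out genes dimmer than the array median, Eno2 among them, and with 3 arrays a genotype the intervals given above set which differences can be told from 0. The 3′ probe set of Gapdh, and Eno2, both outside the fit of the kept probe sets, kept their sign under the pseudocounts, median centring and each array left out. Quantile normalization was not run for them. The middle and 5′ probe sets of Gapdh had the opposite sign to the 3′ probe set in the full data, at -0.021 and -0.068.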

Other observations

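The pentose phosphate pathway, which diverts glucose 6-phosphate to NADPH and ribose, had 4 of 6 measured genes higher on average in knockout, with a median log2 difference of 0.099, and none passed in limma. Pgd, the phosphogluconate dehydrogenase of its oxidative arm, read 1546.9, 1618.8 and 1580.2 in the knockout arrays, against 1603, 1196.1 and 1145.9 in the wild-type arrays. Wild-type 13 lay among the knockout arrays and the other wild-type arrays below them, at 0.28 ± 0.14 and a limma p of 0.0655 before and 0.974 after adjustment. Rpia, the ribose phosphate isomerase, gave 0.36 ± 0.20, or 0.18 without knockout 66.

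Bpgm, which makes the regulator of oxygen release in red cells, was picked out after its values were seen. It read 468.2, 201.1 and 253.9 in the knockout arrays, against 229.4, 166.1 and 237.2 in the wild-type arrays. Its other kept probe sets gave -0.14 and -0.079, against 0.44 for this probe set. The highest value was in knockout 1, which also had the highest primitive erythroid marker deviation of the 6 arrays (0.65). The part of red cells in it was not tested.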
